A study of Mus musculus with 5 samples.

Results

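The cytosolic ribosomal protein genes encode the proteins of the cytoplasmic ribosome, and 83 of the 14161 listed genes belong to them. They were taken by symbol: Rpl or Rps followed by a number and, where present, the copy letters a, x, y or l, together with Rplp0, Rplp1, Rplp2 and Rpsa. Ribosomal S6 kinases and symbols marked as pseudogenes were left out. Of the 83, 50 belong to the large (60S) subunit and 33 to the small (40S) subunit. The rule itself uses no measured value, though it was set with earlier results of these data known.

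The libraries hold RNA of mouse bone marrow mesenchymal stem cells in culture, plastic-adherent cells able to become bone, cartilage or fat. Bmal1-knockout cells gave 3 libraries and wild type cells 2. All of them came from the femurs of C57BL/6 mice aged 6 to 8 weeks, were grown in α-MEM with serum, and were at passages 1 to 3. Bmal1, gene symbol Arntl, encodes a transcription factor that pairs with CLOCK on E-box DNA to drive the circadian clock, and the study asked which genes it regulates in these cells. The knockout allele, the time of day of harvest and whether libraries came from separate animals are not given in the sources used here. The p-values below therefore measure only the spread between these libraries, which may be technical.

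A ribosome holds 1 copy of nearly every ribosomal protein, so cells make these proteins in matched amounts. Their mRNAs are short and abundant, and most begin with a cytosine followed by a run of pyrimidines, the 5′ terminal oligopyrimidine (TOP) motif, through which mTOR signalling controls their translation. Mammalian genomes also carry many processed pseudogenes of these genes, whose letters nearly match the parent mRNA, so that a short read may fit several places.

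Bmal1-knockout libraries held 226695, 237088 and 281990 expected counts in all, against 243072 and 211623 in wild type libraries. Expected counts are read counts in which a read that fits several genes is shared out among them. Levels are given as CPM, counts per 1e6 counts of the tested genes after TMM scaling, on which 3 counts, the limit that a count of 0 allows, equal 12.1 to 15.9 CPM by library. These limits cover counting error only. Arntl had 4, 1 and 2 counts in knockout libraries and 5 and 0 in wild type libraries, a ratio of 0.843 with an exact Poisson interval of 0.230 to 3.37 (95%), so it does not check the labels. Stromal markers were present in all libraries, but so were macrophage markers. The 11 stromal markers summed to between 10320 and 10988 CPM in knockout and between 3970 and 4135 CPM in wild type libraries, and 4 of the 7 tested were higher in the knockout. These were Col3a1, Col1a1, Col1a2 and Cxcl12, which make up most of that sum. The others did not pass or were too low to test: Pdgfra was at a log2 fold change of -0.34, Ly6a at -0.22 and Pdgfrb at 0.15, and Thy1 averaged 3.20 CPM in knockout and 7.05 CPM in wild type libraries. The 16 listed macrophage and monocyte markers summed to between 10183 and 11429 CPM in knockout and between 16453 and 16759 CPM in wild type libraries, and 8 of 16 tested were lower in the knockout. The 4 endothelial markers summed to between 119 and 178 CPM in knockout and between 159 and 197 CPM in wild type libraries, and neither of the 2 tested passed. No library listed counts for 4 of 5 erythroid markers (the haemoglobin genes), 4 of 5 neutrophil markers (S100a9, Mpo, Elane and Ngp) and the T cell markers Cd3e and Cd3d. Every ribosomal protein result below stands beside these marker differences, and their part in it was not tested. In such bulk samples fewer cells of a type and less RNA per cell cannot be told apart.

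The region around the transcription start is shown for the 4 genes that passed the test between the genotypes, because the start carries the TOP motif and BMAL1 acts through E-boxes. The sequences are RefSeq's for GRCm38.p6, the build that mm10 stands for, and 62 of the 83 genes matched a promoter window. Each runs from 60 bases before the start to 20 bases from it on, at chr7:4792905-4792984 (plus strand) for Rpl28, chr2:26910747-26910826 (plus strand) for Rpl7a, chr11:97782420-97782499 (minus strand) for Rpl23 and chr9:64173327-64173406 (plus strand) for Rpl4. Capitals mark a C with at least 4 further pyrimidines at the annotated start in Rpl28 and an E-box (CACGTG) in Rpl23. The E-box of Rpl23 begins 3 bases before the start and so spans it, and CACGTG was not found in this stretch of Rpl7a or Rpl4. A pyrimidine run was counted only where it begins with C at the annotated first base. The stretches of Rpl7a and Rpl4 hold pyrimidine runs across or before the start, which were not counted.
Rpl28: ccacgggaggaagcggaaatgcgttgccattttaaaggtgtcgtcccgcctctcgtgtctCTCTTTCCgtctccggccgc
Rpl7a: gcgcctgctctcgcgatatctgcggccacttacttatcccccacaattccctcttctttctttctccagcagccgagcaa
Rpl23: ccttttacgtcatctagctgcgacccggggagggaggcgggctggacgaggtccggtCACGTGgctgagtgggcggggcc
Rpl4: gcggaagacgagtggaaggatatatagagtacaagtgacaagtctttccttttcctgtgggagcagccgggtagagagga

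The other 5 genes with CACGTG in the window from 250 bases before to 50 bases after the start are shown with 20 bases on each side of the motif, which is in capitals. It begins 200 bases before the start in Rpl13a, 168 in Rpl14, 19 in Rpl19, 155 in Rpl34 and 120 in Rps19. Rpl19, Rpl34 and Rps19 have further annotated starts, and the distance is to a single one of them. In Rpl19 and Rps19 the motif lies inside the gene, whose span begins at 98022003 and 24884592. The stretches lie at chr7:45128920-45128965 (minus strand), chr9:120571329-120571374 (plus strand), chr11:98026671-98026716 (plus strand), chr3:130730528-130730573 (minus strand) and chr7:24884773-24884818 (plus strand).
Rpl13a: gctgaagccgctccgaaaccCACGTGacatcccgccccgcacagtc
Rpl14: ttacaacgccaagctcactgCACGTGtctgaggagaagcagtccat
Rpl19: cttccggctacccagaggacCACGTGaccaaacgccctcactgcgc
Rpl34: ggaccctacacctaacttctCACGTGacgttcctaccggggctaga
Rps19: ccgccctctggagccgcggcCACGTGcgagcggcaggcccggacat

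For the TOP motif, 3 clear examples are shown, with 10 bases before the start and the pyrimidine run from the start in capitals. They lie at chr2:39005112-39005141 (minus strand) for Rpl35, chr11:114668570-114668599 (plus strand) for Rpl38 and chr4:86857348-86857377 (minus strand) for Rps6.
Rpl35: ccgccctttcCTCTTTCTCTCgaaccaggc
Rpl38: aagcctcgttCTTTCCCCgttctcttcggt
Rps6: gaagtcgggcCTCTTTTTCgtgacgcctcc

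CACGTG was found in the windows of 6 of 62 ribosomal protein genes (9.68%) and of 8.09% of all 27025 genes with a window; the motif reads the same on both strands. The run of C and at least 4 pyrimidines at the annotated start, on the sense strand, was found in 14 of 62 (22.6%) and in 3.01% of all genes. The ETS-type motif CCGGAAG, on either strand, was found in 26 of 62 (41.9%) and in 9.93% of all genes, and it overlapped CACGTG in none. Carriers and non-carriers had close medians, which were not tested against each other. The median log2 fold change was 0.27 for the 6 tested carriers of CACGTG and 0.25 for the 48 tested genes without it, 0.26 and 0.24 for the pyrimidine start, and 0.24 and 0.26 for CCGGAAG. A match is a description of letters, not a binding site.

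The summed mRNA of both subunits was higher in Bmal1-knockout than in wild type libraries. Large subunit genes summed to 9726, 8190 and 8742 CPM in knockout libraries, against 7275 and 7125 CPM in wild type libraries. Small subunit genes summed to 6353, 5559 and 5807 CPM in knockout libraries, against 5360 and 4953 CPM in wild type libraries. All knockout libraries lay above both wild type libraries in each subunit, and knockout 1 was the highest. The means were 8886 ± 778 CPM (SD, n = 3) and 7200 ± 106 CPM (SD, n = 2) for the large subunit, a ratio of 1.23, and 5906 ± 406 CPM (SD, n = 3) and 5157 ± 288 CPM (SD, n = 2) for the small subunit, a ratio of 1.15. As a share of all counts, the 83 genes took 1.48%, 1.22% and 1.28% in knockout libraries and 1.11% and 1.07% in wild type libraries.

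**Figure D1:**
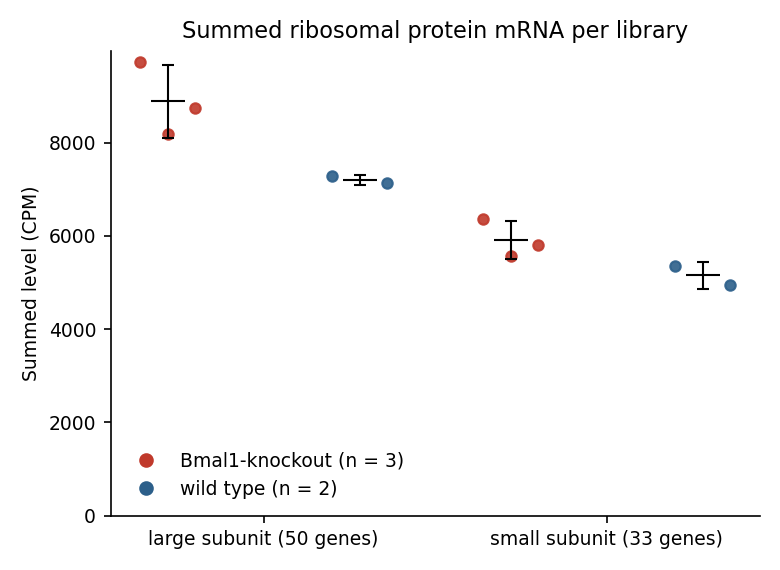
Summed level in CPM (y axis, from 0) of the 50 large and 33 small subunit genes in each library (points), with the mean and SD of each group (lines). The 3 Bmal1-knockout libraries lie above both wild type libraries in both subunits, by 1.23 times for the large and 1.15 times for the small subunit on average.

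The sum of FPKM, the deposited value per length, gave another picture for the small subunit. Large subunit genes summed to 11459, 9065 and 9861 FPKM in knockout libraries and to 8299 and 8407 FPKM in wild type libraries. Small subunit genes summed to 8022, 6570 and 6304 FPKM in knockout libraries and to 6431 and 6065 FPKM in wild type libraries, where knockout 3 lay below wild type 1. The counts of the large over the small subunit stood at 1.53, 1.47 and 1.51 in knockout libraries and 1.36 and 1.44 in wild type libraries, without overlap between the groups. These sums carry no test.

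Single genes moved little beyond their error. Of the 83 genes, 72 passed the filter on low counts and were tested, 41 of the large and 31 of the small subunit. At an adjusted p under 0.05 (edgeR's quasi-likelihood test, Benjamini-Hochberg adjustment over all 3710 tested genes), 4 large subunit genes were higher in the knockout, 9.76% of those tested, beside 8.19% of all tested genes. That share is close to the background, so the count is no result about the family. None was lower, beside 8.14% of all tested genes, and no small subunit gene passed in either direction. At an unadjusted p under 0.05, 8 large and 2 small subunit genes were higher, beside 13.3% of all tested genes, and 1 large subunit gene was lower, beside 14.3%. DESeq2 called none of the 72 in either direction, while calling 3.91% of all tested genes higher, and limma voom called Rpl28 alone higher, while calling 6.31% of all tested genes higher.

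The direction was shared more widely than the calls. The log2 fold change (knockout over wild type) was above 0 in 37 of 41 large and 24 of 31 small subunit genes, 84.7% together, beside 50.5% of all tested genes. Its median was 0.27 for the large and 0.21 for the small subunit, against 0.01 for all tested genes. The values ran from -0.50 to 1.04 in the large and from -0.32 to 0.79 in the small subunit, with a median standard error of 0.27 for a single gene. Every knockout library lay above both wild type libraries in 16 genes, 8 in each subunit, or 22.2% of the 72 beside 21.1% of all tested genes. Every knockout library lay below both in 2 genes, Rpl22 and Rps10, or 2.78% beside 21.5%. All genes were compared through the same 5 libraries, so their signs are not independent of each other.

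**Figure D2:**
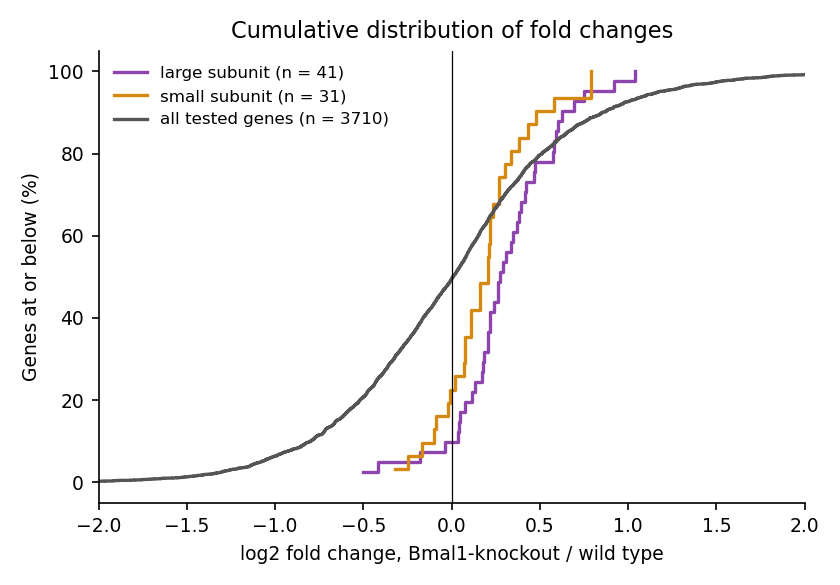
Share of genes (y axis, percent) with a log2 fold change, Bmal1-knockout over wild type, at or below the value on the x axis, for 41 large subunit, 31 small subunit and all 3710 tested genes. The ribosomal protein curves are steep and lie mostly right of 0, with medians of 0.27 and 0.21, while the curve of all tested genes crosses 0 near its middle.

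**Figure D3:**
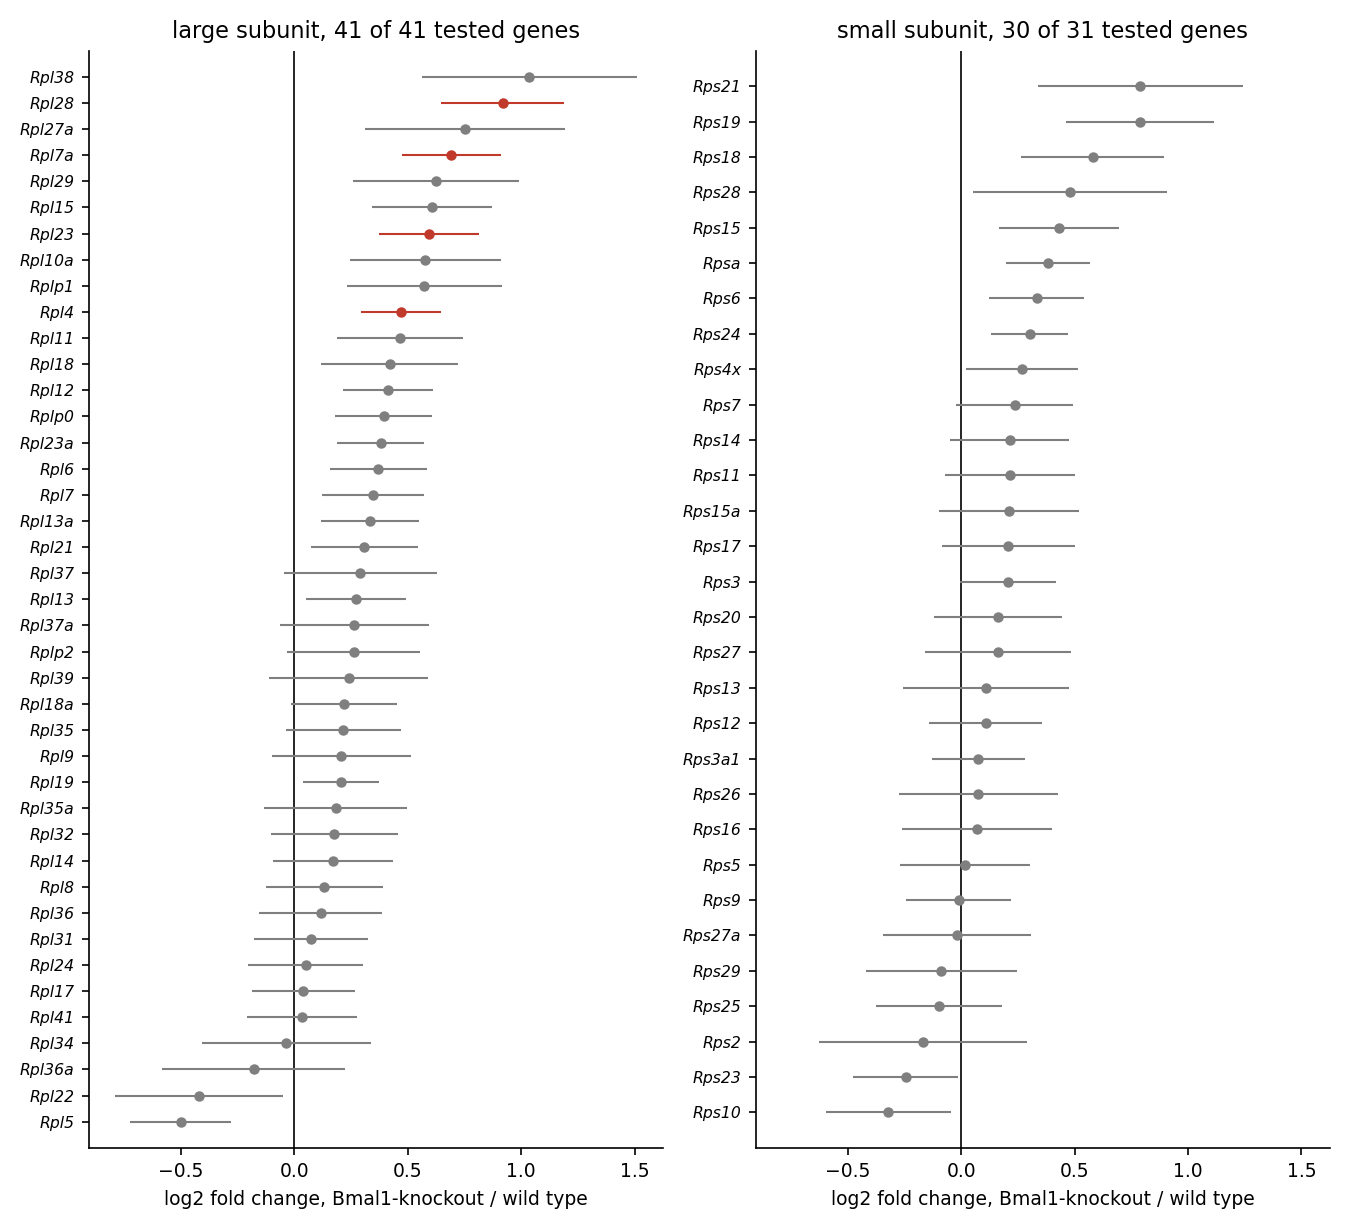
Log2 fold change, Bmal1-knockout over wild type, of 71 of the 72 tested genes, each with its standard error (bars), for the large subunit (left) and small subunit (right). Red marks the 4 genes with an adjusted p under 0.05, and most other points lie between 0 and 0.5, many with bars that cross 0.

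The tested ribosomal protein genes were short, with a median length of 718 bases, against 3315 bases for all tested genes. The 674 shortest of the other tested genes, with a median length of 1374 bases, had a median log2 fold change of -0.01, and 49.4% of them lay above 0.

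Rpl28, a protein of the large subunit found in animals but not in yeast, was the clearest of the 4 called genes. It had 47, 49 and 62.28 counts in knockout libraries, against 19.77 and 29.53 in wild type libraries. All knockout libraries lay above both wild type libraries, with little spread among the knockout. Its level was 237 ± 13.5 CPM (SD, n = 3) in knockout and 125 ± 45.3 CPM (SD, n = 2) in wild type libraries, a log2 fold change of 0.92 (SE 0.27; edgeR adjusted p = 0.00752). The call was lost without wild type 1, the library lowest for it (0.55, adjusted p = 0.392), and with DESeq2 (adjusted p = 0.0796). Rpl28 lies on chromosome 7 from 4792965 to 4794547 (GRCm38), and its exons overlap those of Ube2s on the other strand over 183 bases. No source used here gives the strand setting, so reads of the pair cannot be told apart. Other genes share 47.4% of the 50-base windows of Rpl28, most often the pseudogene Rpl28-ps1 (34.5%). These windows come from its longest protein-coding transcript, of 1106 bases, while the length listed with its counts is 496 bases. The share over the shorter length is not given here. Windows were matched on both strands, so the 47.4% can include bases opposite Ube2s. The counts of Rpl28 were not whole in 3 libraries, where reads were shared out among genes.

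Rpl7a, a large subunit protein, passed while its groups overlapped. It had 101.06, 75.38 and 47.02 counts in knockout libraries, against 45.25 and 39.39 in wild type libraries. In CPM, knockout 3 at 190 lay below both wild type libraries at 213 and 209, and knockout 1 at 486 was far above. Its level was 345 ± 148 CPM (SD, n = 3) in knockout and 211 ± 2.29 CPM (SD, n = 2) in wild type libraries, a log2 fold change of 0.69 (SE 0.22; edgeR adjusted p = 0.0142). Its counts varied more between libraries of a group than those of any other tested member, 9.94 times what counting alone gives. The call was lost without any one of knockout 1 (0.37), knockout 2 (0.66), wild type 1 (0.69) and wild type 2 (0.67). DESeq2 (adjusted p = 0.459) and limma voom (adjusted p = 0.0624) did not call it either. Of the 50-base windows of its longest protein-coding transcript, 81.2% occur in other genes, most often in the pseudogene Rpl7a-ps11, so its counts are uncertain. The gene lies on chromosome 2 from 26910685 to 26913312, and the RefSeq start used for its window lies inside that span.

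Rpl23, a protein of the subunit interface, and Rpl4, whose long loop lines the tunnel through which the new chain leaves, passed narrowly. Rpl23 had 84, 51 and 81 counts in knockout libraries, against 41 and 45 in wild type libraries. Rpl4 had 107, 109 and 110 counts in knockout libraries, against 75 and 67 in wild type libraries. In both genes every knockout library lay above both wild type libraries in CPM, though knockout 2 of Rpl23, at 242 CPM, exceeded wild type 2, at 239 CPM, by little.

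The level of Rpl23 was 325 ± 80.6 CPM (SD, n = 3) in knockout and 216 ± 32.9 CPM (SD, n = 2) in wild type libraries, a log2 fold change of 0.59 (SE 0.22; edgeR adjusted p = 0.0439). The call was lost without any one of knockout 1 (0.43), knockout 3 (0.58), wild type 1 (0.42) and wild type 2 (0.74). For Rpl4 the level was 492 ± 41.1 CPM (SD, n = 3) in knockout and 354 ± 2.65 CPM (SD, n = 2) in wild type libraries, a log2 fold change of 0.47 (SE 0.18; edgeR adjusted p = 0.0468). Its call was lost without any one of knockout 1 (0.45), knockout 2 (0.44), wild type 1 (0.45) and wild type 2 (0.47). Both were also lost with DESeq2 (adjusted p = 0.233 for Rpl23 and 0.198 for Rpl4). Other genes share 34.8% of the 50-base windows of Rpl23 and 16.5% of those of Rpl4. Rpl23 lies on chromosome 11 from 97777526 to 97782439 and Rpl4 on chromosome 9 from 64173387 to 64178562.

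**Figure D4:**
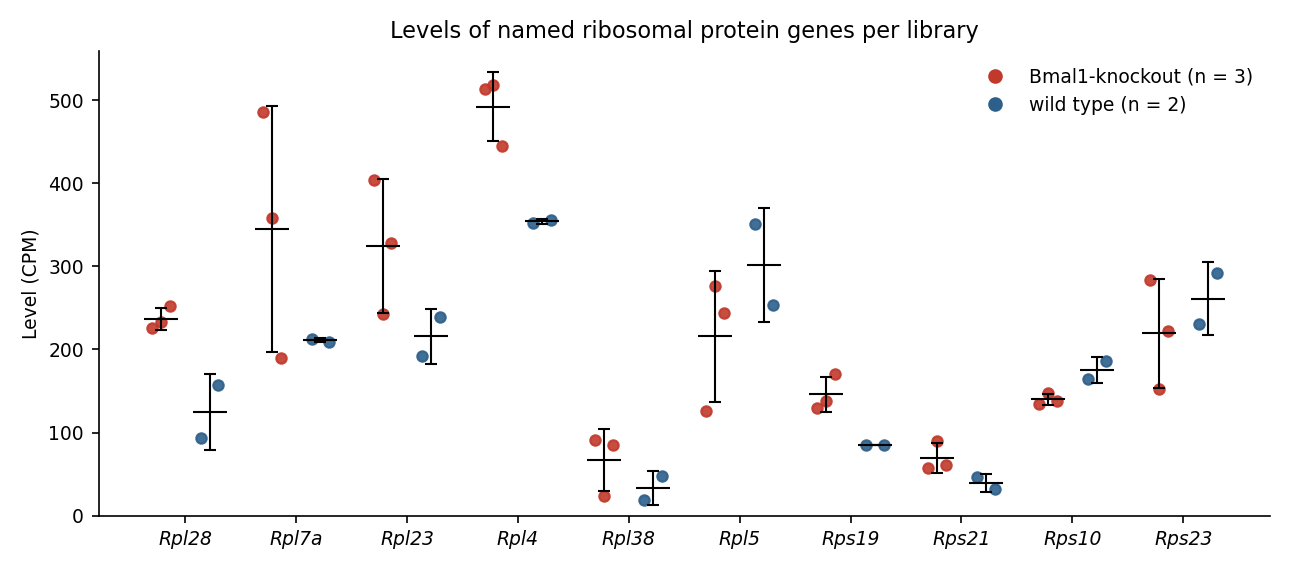
Level in CPM (y axis, from 0) of 10 ribosomal protein genes in each Bmal1-knockout (red, left of each pair) and wild type (blue) library, with the mean and SD of each group (lines). Rpl28 and Rpl4 show separate groups, while the knockout libraries of Rpl7a run from 190 to 486 CPM around wild type libraries at 213 and 209 CPM.

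Proteins of the stalk that recruits elongation factors stood above 0 without passing. Rplp0, the stalk base, was at 0.39 (adjusted p = 0.213), its partners Rplp1 and Rplp2, the acidic proteins that form the arm, at 0.57 (adjusted p = 0.270) and 0.26 (adjusted p = 0.605), and Rpl12, which anchors the stalk to the subunit, at 0.41 (adjusted p = 0.146; log2 fold changes with edgeR adjusted p). Rpl12 had 432, 413 and 291 CPM in knockout libraries and 254 and 314 CPM in wild type libraries, where knockout 3 lay below wild type 2. Without knockout 3 it was at 0.58 and passed (edgeR adjusted p = 0.0420). All 4 thus showed values above 0 with overlapping groups.

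The proteins that travel with 5S rRNA and can hold MDM2, the ubiquitin ligase of p53, differed in sign. Rpl5 had 26.25, 58.27 and 60.29 counts in knockout libraries, against 74.61 and 47.60 in wild type libraries. Its groups overlapped in CPM, with knockout 1 lowest at 126 and wild type 1 highest at 351. The log2 fold change was -0.50 (SE 0.22; edgeR adjusted p = 0.108), the lowest of all tested members. Its partner Rpl11 was at 0.47 (SE 0.28; edgeR adjusted p = 0.270). Rpl5 has 953 exon bases opposite Fam69a. Other genes share 93.8% of its 50-base windows, Gm15500 alone 48.5%. Windows were matched on both strands, so the 93.8% can include bases opposite Fam69a. The counts of Rpl5 are therefore uncertain.

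Rpl38, which in mouse embryos is needed for the translation of some Hox mRNAs, had the highest log2 fold change of the family, 1.04 (SE 0.47; edgeR adjusted p = 0.123). It had 19, 5 and 21 counts in knockout libraries, against 4 and 9 in wild type libraries. Knockout 2 lay between the wild type libraries, so the groups overlapped on low counts. The value rested on single libraries: it was 0.47 without wild type 1, 1.80 without wild type 2 and 1.43 without knockout 2, where it passed (edgeR adjusted p = 0.0431). Rpl15, a core protein of the large subunit, had 235, 209 and 227 CPM in knockout libraries and 155 and 138 CPM in wild type libraries, separate groups with a log2 fold change of 0.60 (edgeR adjusted p = 0.104). Rpl27a and Rpl29 were at 0.75 and 0.62 with overlapping groups. Rpl29 was at 1.71 without wild type 1, where it passed (edgeR adjusted p = 0.0498), and at 0.047 without wild type 2. Rpl27a was at 1.08 without knockout 2.

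The negative side of the large subunit was short. Rpl22, an RNA-binding protein dispensable for the ribosome itself in mice, had 62.5, 90.3 and 60.7 CPM in knockout libraries and 94.0 and 95.7 CPM in wild type libraries. All knockout libraries lay below both wild type libraries, at a log2 fold change of -0.42 (SE 0.37; edgeR adjusted p = 0.492). Rpl36a was at -0.18 and Rpl34 at -0.04, and the sign of Rpl34 changed between settings.

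Of the small subunit, Rps19, the protein most often mutated in Diamond-Blackfan anaemia, came nearest to the threshold. It had 27, 29 and 42 counts in knockout libraries, against 18 and 16 in wild type libraries. The groups were separate, with wild type libraries almost equal at 84.6 and 85.0 CPM. Its level was 146 ± 21.3 CPM (SD, n = 3) in knockout and 84.8 ± 0.335 CPM (SD, n = 2) in wild type libraries, a log2 fold change of 0.79 (SE 0.33; edgeR adjusted p = 0.0790). It passed with limma on log2(FPKM + 1), at 0.73 (adjusted p = 0.0189).

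Rpsa, the small subunit protein also known as the laminin receptor, had 404, 418 and 453 CPM in knockout libraries and 329 and 324 CPM in wild type libraries. Its groups were separate and its spread small, and the log2 fold change was 0.38 (SE 0.18; edgeR adjusted p = 0.150). Rps21 was at 0.79 on low counts, 12, 19 and 15 in knockout and 10 and 6 in wild type libraries. Rps18, at 0.58, and Rps15, at 0.43, also had separate groups, and Rps28, at 0.48, did not. Rps6, the target of the S6 kinases, was at 0.33 (edgeR adjusted p = 0.298) with separate groups, at 365, 314 and 303 CPM in knockout and 272 and 244 CPM in wild type libraries.

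On the other side, Rps10, a protein of the small subunit head, had 28, 31 and 34 counts in knockout libraries and 35 and 35 in wild type libraries. Its knockout libraries lay below both wild type libraries in CPM, at a log2 fold change of -0.32 (SE 0.28; edgeR adjusted p = 0.482). Rps10 has 189 exon bases opposite Gm15420. Rps23, a protein of the decoding centre, was at -0.24, Rps2 at -0.17, Rps25 at -0.10 and Rps29 at -0.09, all with overlapping groups. The sign of Rps2 and Rps29 changed with the library left out.

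Per length, the most abundant large subunit mRNAs, as the mean FPKM over the 5 libraries, were Rpl23a (570), which lies at the tunnel exit, Rpl19 (529), Rpl12 (467), Rpl41 (465) and Rpl35 (435). Among the highest in the small subunit were Rps24 (443), Rps23 (376), Rps12 (368) and Rps15 (342). The median over genes was 165 FPKM for the large and 188 FPKM for the small subunit. The lowest were Rpl3 (1.94), Rpl32l (2.93) and Rpl27 (7.34) in the large and Rps4l (4.53), Rps15a (17.2) and Rps20 (31.7) in the small subunit. The lengths listed for Rps15a (5158 bases) and Rps20 (3446 bases) are far above the median of 718 bases, which lowers their FPKM.

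Rpl3, Rpl26, Rpl27 and Rpl30 encode proteins that every ribosome holds, yet their listed counts were near 0. No library listed a value under the symbol Rpl10, which also fits the rule, so it is not among the genes counted here. Rpl26 had 0.36, 0 and 0 counts in knockout libraries and 2.06 and 2.12 in wild type libraries. Gm15772, an Rpl26 pseudogene on chromosome 5 from 3236390 to 3236928, had 84.64, 93 and 99 counts in knockout libraries and 76.94 and 49.88 in wild type libraries. The reads thus stood at the copy, of whose 50-base windows 74.3% occur in Rpl26. Together the pair held 85, 93 and 99 counts in knockout libraries and 79 and 52 in wild type libraries, and Gm15772 was at a log2 fold change of 0.40 (edgeR adjusted p = 0.136).

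A similar arrangement was seen for Rpl30. It had 2.27, 2.09 and 3.82 counts in knockout libraries and no listed value in either wild type library, which was taken as 0. Gm12191, a copy, lies on chromosome 11 from 49678620 to 49679143. It had 14.73, 21.91 and 12.18 counts in knockout and 21 and 13 in wild type libraries. Of its 50-base windows 100% occur in other genes, most often in Rpl30-ps9 (96.7%), and the share with Rpl30 alone is not given here. Summed, the pair held 17, 24 and 16 counts in knockout libraries against 21 and 13 in wild type libraries, which overlap. The apparent presence of Rpl30 in knockout libraries alone was thus not seen in the sum of the pair. Rpl27 had 0, 4.78 and 2.40 counts in knockout libraries and 0 in both wild type libraries, and Rpl3 had 2.53, 0 and 1.64 counts in knockout libraries and 0 in both wild type libraries. Other genes share 53.0% of the 50-base windows of Rpl27 and 85.6% of those of Rpl3.

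**Figure D5:**
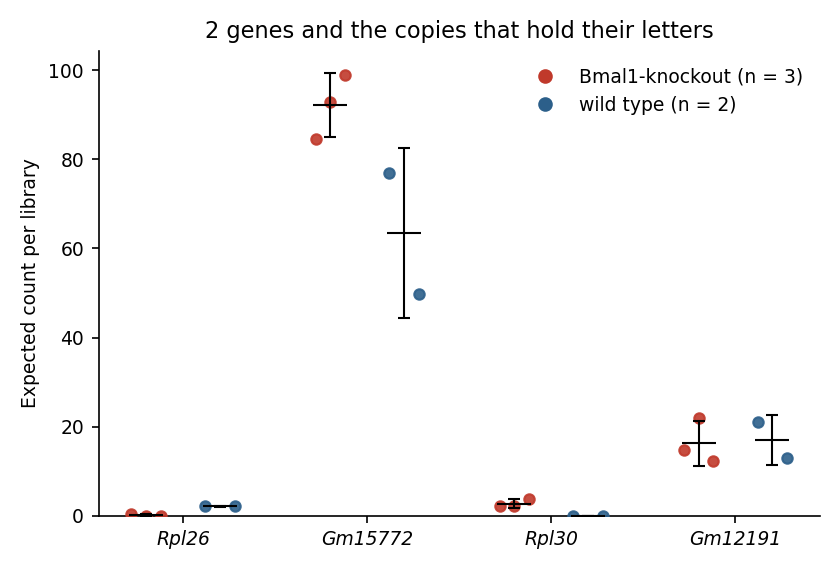
Expected count per library (y axis, from 0) of Rpl26 and Rpl30 and of the copies Gm15772 and Gm12191, in Bmal1-knockout (red, left of each pair) and wild type (blue) libraries, with the mean and SD of each group (lines). Most counts of each pair stand at the copy, between 49.88 and 99 for Gm15772 and at most 3.82 for Rpl26 or Rpl30.

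Counts that were not whole, within 0.005, mark reads shared out among genes. They occurred in some library for 27 of the 83 genes, 18 of the large and 9 of the small subunit. In a library, 74.7% to 81.6% of the listed ribosomal protein values were whole, against 93.8% to 94.2% of all listed values. The median share of 50-base windows found in other genes was 49.3% for the 27 and 40.9% for the 54 matched genes with whole counts throughout. Whole counts thus do not show that a read had 1 place. With the 27 genes left out, Rpl23 and Rpl4 were the 2 called genes that stayed. Exons of 14 of the 83 genes lie opposite those of another gene over at least 100 bases, and beside those named above they include Rpl15 (105 bases), Rpl23a (506), Rpl35 (821), Rps18 (156) and Rps25 (668).

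Paralogs and related copies were low. Rpl36al, a paralog of Rpl36a, had 13, 6 and 10 counts in knockout libraries and 4 and 5 in wild type libraries. Rpl22l1, the paralog of Rpl22, had 7, 3 and 2 counts in knockout and 3 and 0 in wild type libraries. Rps27l, a p53-responsive relative of Rps27, had 7, 12 and 10 counts in knockout and 8 and 4 in wild type libraries. None of them could be tested, and apart from Rpl36al the listed counts overlap between the groups. Rpl39l, whose parent Rpl39 it replaces in the ribosomes of mouse male germ cells, had 2, 4 and 2 counts in knockout and 4 and 0 in wild type libraries. Rpl7l1 had 7, 4 and 10 counts in knockout and 7 and 6 in wild type libraries, Rps4l, annotated as a transcribed pseudogene, had 2, 1 and 3 in knockout and 0 in both wild type libraries, and Rpl32l had 1 count in knockout 1 and 1 in wild type 1.

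Genes that share the TOP motif or work with the ribosome resembled the family in their median. Of 27 such genes outside the rule, 20 were tested, 1 was higher, none lower and 16 lay above 0, with a median log2 fold change of 0.21. Pabpc1, the poly(A)-binding protein, was the one that rose (0.53, edgeR adjusted p = 0.0257), and Vim, the intermediate filament vimentin, was at 0.33 (edgeR adjusted p = 0.0728). Rack1, a scaffold on the small subunit, was at 0.40 and did not pass. Fau, which makes a small subunit protein fused to a ubiquitin-like one, had 8.15, 7.21 and 10.64 counts in knockout libraries and 3.88 and 10.02 in wild type libraries and was too low to test.

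Genes of ribosome biogenesis were mostly too low to test, with 10 of 52 tested, 1 higher, none lower and a median of 0.23. Bysl, which helps mature the small subunit, rose by 0.95 (edgeR adjusted p = 3e-06), with 361 exon bases opposite Ccnd3. Of 46 translation initiation factors 30 were tested, 1 was higher, none lower and the median was 0.13, and Eif2s2, the beta subunit of eIF2, rose by 0.95 (edgeR adjusted p = 0.0104). Of 19 genes that control ribosomal protein output, 9 were tested, 1 was higher and none lower, with a median of 0.05. Tsc2, an inhibitor of mTOR, rose by 0.94 (edgeR adjusted p = 7e-09), with 693 exon bases opposite Pkd1. Rps6kb1, an S6 kinase, was at 0.88 and did not pass, and Myc, Mtor and Eif4ebp1 were too low to test.

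Mitochondrial ribosomal proteins, which serve a separate ribosome, were also mostly too low. Of 77 listed, 5 were tested, none was higher and 1 was lower, with a median of 0.01. Mrpl27 fell by 1.05 on the log2 scale (edgeR adjusted p = 2e-15), with 75 exon bases opposite Eme1. Against all these lists the 72 cytosolic ribosomal protein genes had the median of 0.22, and no difference between lists was tested.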

How the data were processed

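Total RNA was sequenced as 5 libraries, 3 of Bmal1-knockout and 2 of wild type cells. Per the file headers, the authors deposited for each library an expected count, an FPKM (normalised for length and library) and a gene length. The submitters' processing notes name HISAT2, StringTie, Bowtie2, RSEM and the build mm10, without versions or roles.

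Where a library lists no value for a gene, 0 was used, and the deposited expected counts were rounded to whole numbers for the tests. Genes were filtered with filterByExpr (minimum count 10, minimum total 15) and scaled by TMM. They were tested with edgeR 4.0.16 in R 4.3.3 (robust quasi-likelihood, Benjamini-Hochberg, 0.05). The test was also run on simulated data with the same dispersion (0.0084) for every gene. That run does not show how calls hold for genes that vary more, as Rpl7a did. Standard errors came from the fold change and the F statistic. DESeq2 1.42.0 and limma 3.58.1 gave alternatives. Exon overlaps and shared 50-base windows came from GENCODE M21, promoter windows from RefSeq (GRCm38.p6). The windows of a gene were those of its longest protein-coding transcript, or of the longest transcript for the pseudogene copies. This transcript can differ in length from the one counted. Shared windows were sought on both strands of the transcripts of other genes. Counts of every pair of libraries differed by more than sampling noise. No pairing by replicate number was seen, which at this depth does not show that there was none.

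The genes and lists were chosen with earlier results of these data known. Named genes were those past the test, per subunit the 5 largest changes each way, the 5 highest and 3 lowest by FPKM, the 3 with the largest non-whole share, paralogs with their parents, and up to 2 genes per direction of each other list. Others named, for their role in the ribosome, were chosen after their values were seen. A few genes that the rule names are not reported here.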

Additional observations from a re-analysis of the deposited data

How the results depend on the processing

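The count of large subunit genes called higher, 4, depended on most settings. It was 2 with upper quartile scaling, with no filter beyond 1 count, with at least 30 summed counts and, chosen after seeing the data, with members of whole counts only; 1 with limma voom and with limma on log2(FPKM + 1); and 0 with DESeq2. With 1 library left out it ran from 1 to 4, and it was 1 without knockout 1, wild type 1 or wild type 2; with 1 wild type library, that library is assumed to vary as the knockout libraries do. The genes changed as well: Rpl29 was the one called without wild type 1. No small subunit gene was called higher except 1, Rps19, with limma on log2(FPKM + 1), and no member was called lower under any setting. The log2 ratio of the summed levels was 0.30 for the large and 0.20 for the small subunit. It moved by less than the replicate spread, from 0.24 to 0.37 and from 0.13 to 0.25 with a library left out. With the replicate number as a replicate block 4 members were called, Rpl12, Rpl28, Rpl4 and Rpl7a, and Rpl34 (0.15), Rpl41 (-0.11) and Rps15a (-0.013) changed sign, as did Rpl41 (-0.053) with limma on log2(FPKM + 1). Deviations of same-numbered libraries correlated at -0.008 and 0.026 across genes, which at this depth cannot decide whether they were paired. The numbers were not taken as pairs because nothing in the labels says that a number is shared. With a library left out, further signs turned: Rpl34 ran from -0.46 to 0.31, Rpl39 from -0.014 to 0.55, Rpl41 from -0.14 to 0.25, Rps12 from -0.12 to 0.26 and Rps15a from -0.0024 to 0.40. Likewise Rps2 ran from -0.39 to 0.11, Rps20 from -0.056 to 0.42, Rps27 from -0.37 to 0.87, Rps28 from -0.17 to 1.09 and Rps29 from -0.44 to 0.41. Of all alternative values of single named genes, 499 kept direction and side of the threshold, 31 lost a call, 5 gained one and 22 turned. Only the 4 genes called in the main test could lose a call, so most of the 499 belong to genes not called there. The cause of these changes was not tested. Depth limits what can be seen: a fold change near the family median of 0.22 is below the median standard error of 0.27 of a single gene.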
